A study of Mus musculus with 16 samples.

Results

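The genes described here are 10 members of the feedback circuit of cytokine signalling: the inhibitors Cish, Socs1, Socs2 and Socs3, the kinases Pim1, Pim2 and Pim3, and the transcription factors Stat3, Stat5a and Stat5b. They were chosen by gene symbol in the platform annotation, and all 10 were found among the 19938 genes that could be measured. Socs2 and Socs3 each had 2 probe sets, and the one with the highest mean was used. The samples are 16 Affymetrix whole-transcript arrays of total RNA from 2 CD8 T cell clones of the mouse, with 4 arrays in each of 4 groups. One clone, called conventional, carries the label cyclosporine-sensitive, and the other, called unconventional, the label cyclosporine-resistant. All 4 groups received an immobilized anti-CD3 antibody as the activating stimulus in medium free of recombinant cytokines, and in each clone one group also received cyclosporine A at 1 ug per ml. Before that the cells had been grown with IL-1a, IL-6, IL-7, IL-15, TNF-α and interferons. Each cell type is represented by 1 clone, unstimulated cells were not analysed here, and the labels do not say whether the 4 replicates were separate cultures. The p-values below therefore weigh a difference against the spread among these arrays alone, and that spread may be technical.

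Cytokine receptors of the common gamma chain and gp130 families carry JAK kinases, which phosphorylate STAT proteins. STAT5A and STAT5B act mainly after IL-2, IL-7 and IL-15, and STAT3 mainly after IL-6, IL-10 and IL-21. Activated STATs enter the nucleus and switch on genes of their own inhibitors. CISH and SOCS2 bind phosphorylated receptors and recruit a ubiquitin ligase through the SOCS box, while SOCS1 and SOCS3 in addition block the JAK kinases directly. CISH also restrains T cell receptor signalling in CD8 T cells. PIM kinases are serine/threonine kinases that need no activating phosphorylation, so their activity follows their abundance, and they support growth and survival of T cells. Cyclosporine A blocks calcineurin and thereby the NFAT transcription factors that the T cell receptor activates.

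Promoter sequence was available for 9 of the 10 genes in a RefSeq table of build GRCm38.p6, with 12 start sites in all. The 250 bases before each start were searched on both strands for the STAT motif TTCNNNGAA, the NFAT core TGGAAA and the AP-1 motif TGANTCA. They were found in 7.02%, 18.58% and 6.75% of all 32851 windows of that length. Of the 12 windows, 1 held the STAT motif, 2 held the NFAT core and 0 held the AP-1 motif. The STAT match lay in Socs3, starting 154 bases before the start site, and the NFAT matches lay in one of the start sites each of Pim1 and Stat5b, at 25 and 120 bases, so no window held matches of more than one motif. The windows of Socs3 and Cish are shown because these genes gave the widest ranges of level and, as described below, opposite orders of the drug's effect in the clones. Capitals mark the STAT motif, both sequences run 5′ to 3′ on the gene's strand, and a match or its absence describes these letters only.
Socs3, chr11:117969367-117969616, minus strand: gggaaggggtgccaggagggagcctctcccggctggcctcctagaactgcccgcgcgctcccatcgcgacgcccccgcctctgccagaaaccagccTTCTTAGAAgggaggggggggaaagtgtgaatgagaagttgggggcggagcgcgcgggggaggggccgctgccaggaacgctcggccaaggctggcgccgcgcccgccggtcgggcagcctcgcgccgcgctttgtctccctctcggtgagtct
Cish, chr9:107296409-107296658, plus strand: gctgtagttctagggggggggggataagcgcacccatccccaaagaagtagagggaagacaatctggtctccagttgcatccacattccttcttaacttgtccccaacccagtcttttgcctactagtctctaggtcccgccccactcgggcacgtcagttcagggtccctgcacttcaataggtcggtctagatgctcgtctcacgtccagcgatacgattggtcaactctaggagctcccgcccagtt

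Levels below are log2 expression values as deposited, and a change is a difference of log2 values with its standard error (SE) from a limma fit of all 19938 genes. The word called stands for an adjusted p under 0.05. The 16 array medians ranged from 5.16 to 5.35, with correlations of 0.995 to 0.998 between replicates. As markers of the labelled cell type, Cd3e lay between 10.52 and 11.09 on average in the 4 groups, and Cd3g between 12.16 and 12.74. Both had higher means with the drug in each clone. Cd8a went the other way, from 12.50 to 11.92 in the conventional and from 10.31 to 8.56 in the unconventional clone. Cd8b1 stood at 12.31 in both conventional groups, and at 10.24 and 10.26 in the unconventional ones. Cd4 stayed between 4.11 and 4.46 on single arrays. The arrays within a group did not stand equally for these genes. Replicate 1 of the unconventional clone with anti-CD3 alone was the lowest array of its group for 7 of the 10 genes, against 31.2% of all genes, and replicate 4 of the conventional clone with anti-CD3 alone for 6, against 29.0%. Standing high for 6 of the 10 were replicate 3 of the conventional and replicate 4 of the unconventional clone with anti-CD3 alone and replicate 4 of the unconventional clone with the drug, against 28.5%, 29.6% and 27.1% of all genes. Where leaving out one of these arrays changed a call, that value is given beside the result.

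The first comparison asked how cyclosporine A changed the circuit in each clone. Most of its genes fell in both clones. In the conventional clone 9 of the 10 genes fell and 0 rose, with 15.5% of all genes called lower and 15.9% called higher. Of these, 6 fell at least 2-fold, against 2.69% of all genes. The unconventional clone showed falls of 7 genes and rises of 0, with 12.3% of all genes called lower and 12.6% called higher, and the falls of 2, Cish and Socs1, were at least 2-fold, against 1.07%. By limma, 0 of the 10 genes rose in either clone at an unadjusted p under 0.05 as well. The treated arrays lay wholly below the untreated ones for 9 genes in the conventional and 8 in the unconventional clone, as for 15.1% and 13.0% of all genes. The same 7 were lower in each clone, as were 8.46% of all genes. The median change of the 10 genes was -1.23 in the conventional and -0.68 in the unconventional clone, beside 0.02 for all genes in each. With each array centred on its median, 1842 of all genes were called higher and 2751 lower in the unconventional clone, against 2518 and 2452 as deposited, and the members' counts of 9 and 7 stayed as they were. Since RNA was pooled from many cells, fewer cells expressing a gene and less RNA per cell cannot be told apart.

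**Figure D1:**
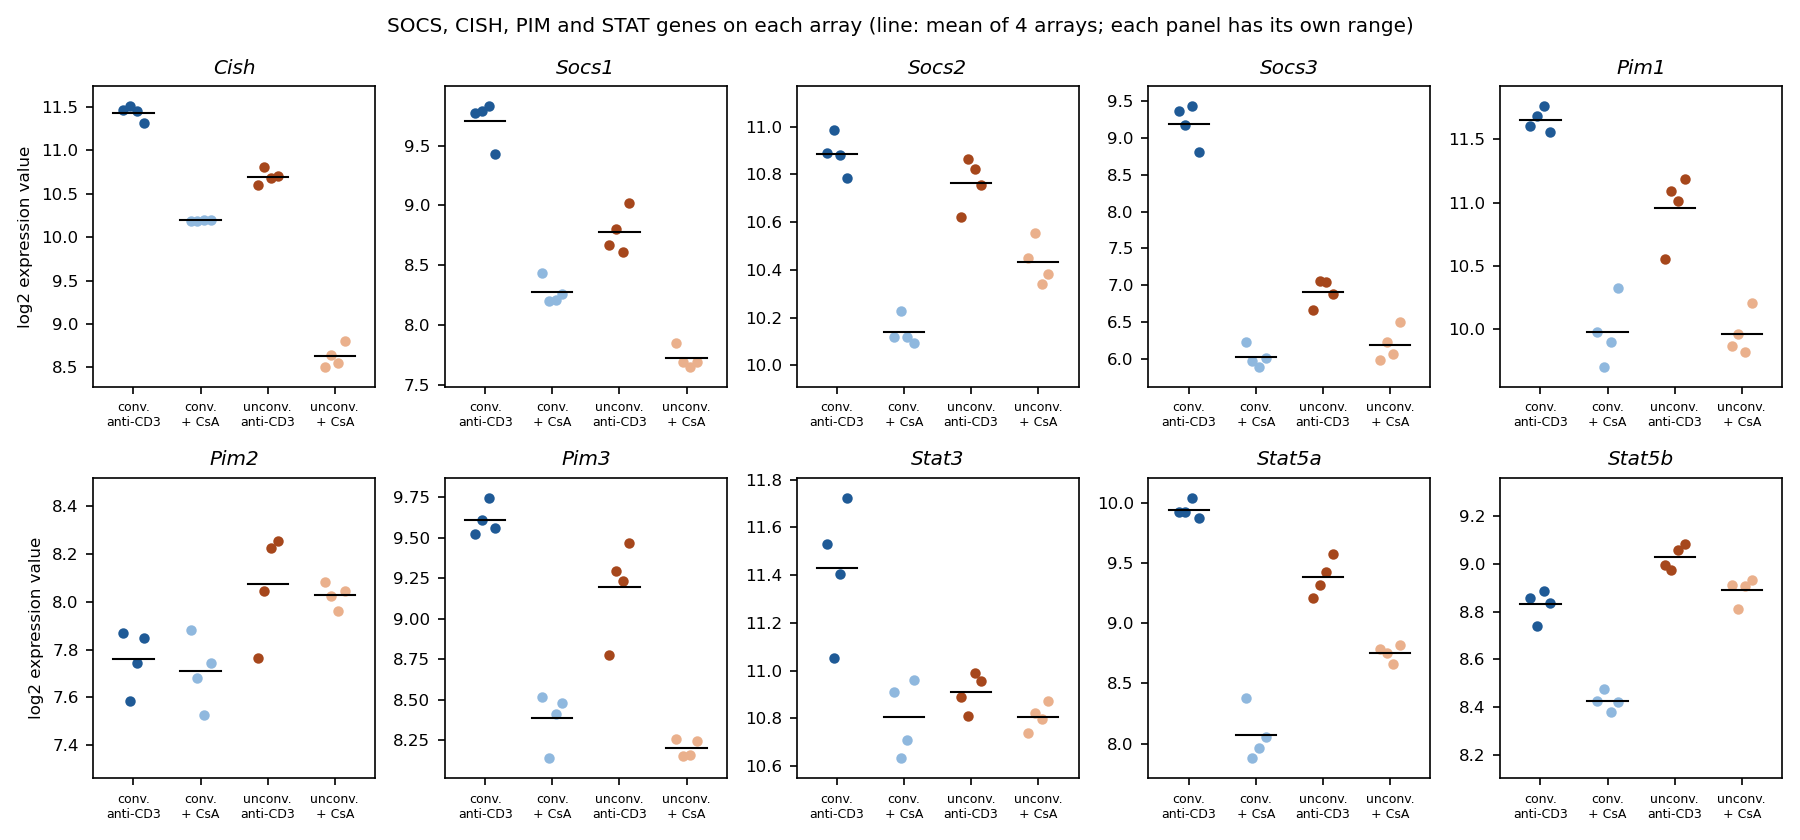
Log2 expression value (vertical axis, own range in each panel) of each of the 10 genes on each of the 16 arrays, by group (horizontal axis), with points for arrays and a line for the mean of 4. The conventional clone with anti-CD3 alone is the highest group for 8 of the genes, and Pim2 and Stat5b are highest in the unconventional clone.

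Socs3, the inhibitor that binds gp130 and related receptors, changed most in the conventional clone. Its arrays there read 9.37, 9.18, 9.43 and 8.81 with anti-CD3 alone and 6.22, 5.97, 5.89 and 6.01 with cyclosporine A. The groups were far apart, and the fall was 9.03-fold (-3.18, SE 0.13, adjusted p = 3.37e-13). The unconventional clone's arrays read 6.66, 7.06, 7.04 and 6.88 with anti-CD3 alone and 5.98, 6.22, 6.06 and 6.49 with the drug. Every array without the drug still lay above every array with it, by a smaller margin, and the fall was 1.65-fold (-0.72, SE 0.13, adjusted p = 0.000281). Without the low untreated arrays, replicate 4 of the conventional and replicate 1 of the unconventional clone, the changes were -3.30 and -0.81. The difference of the effects was 2.45 (SE 0.19, 95% interval 2.06 to 2.84, adjusted p = 1.42e-08). The dimmer probe set of Socs3, with a mean level of 5.44, fell in the conventional clone (-0.70, adjusted p = 2.11e-05), was not called in the unconventional clone (0.13, adjusted p = 0.466), and gave a difference of 0.83 (adjusted p = 0.000427). The mean of both probe sets fell in each clone (-1.94 and -0.30), so the sizes for Socs3, and the call in the unconventional clone, rest on the brighter probe set.

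Cish went the other way between the clones. In the conventional clone its arrays read 11.46, 11.51, 11.46 and 11.31 with anti-CD3 alone and 10.18, 10.19, 10.20 and 10.20 with the drug. The drug-treated arrays were nearly identical, with an SD of 0.0088 (n = 4), and the fall was 2.37-fold (-1.24, SE 0.07, adjusted p = 4.25e-11). On the unconventional side they read 10.60, 10.81, 10.68 and 10.70 without the drug and 8.51, 8.65, 8.55 and 8.80 with it. There the fall was 4.20-fold (-2.07, SE 0.07, adjusted p = 5.77e-14), with no overlap between the groups. Cish was the 1 gene of the 10 called with a larger fall in the unconventional clone, by -0.83 (SE 0.10, 95% interval -1.04 to -0.61, adjusted p = 6.27e-06). For scale, 7.78% of all genes were called with a lower value of that difference.

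Socs1, which restrains interferon-γ and IL-2 family signalling, fell in both clones. Its arrays in the conventional clone read 9.78, 9.79, 9.83 and 9.43 with anti-CD3 alone and 8.43, 8.20, 8.21 and 8.26 with the drug. Replicate 4 was the low array of the untreated group, yet it lay above every treated array. The fall was 2.70-fold (-1.43, SE 0.10, adjusted p = 4.76e-10), and -1.53 without replicate 4. Those of the unconventional clone read 8.67, 8.80, 8.61 and 9.02 without and 7.85, 7.69, 7.65 and 7.69 with the drug. The groups did not overlap, and the fall was 2.08-fold (-1.06, SE 0.10, adjusted p = 9.39e-08). The difference of the effects, 0.38 (95% interval 0.08 to 0.67, adjusted p = 0.0778), was not called. It was called without replicate 4 of the conventional clone with anti-CD3 alone (0.47, adjusted p = 0.0147), without replicate 1 of that clone with the drug (0.43, adjusted p = 0.0494), without replicate 4 of the unconventional clone with anti-CD3 alone (0.46, adjusted p = 0.0228) and among the brighter genes only (0.38, adjusted p = 0.0429).

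Socs2, best known as a brake on growth hormone signalling, moved least of the inhibitors. In the conventional clone its arrays read 10.89, 10.99, 10.88 and 10.79 without the drug and 10.12, 10.23, 10.12 and 10.09 with it. The unconventional clone gave 10.62, 10.87, 10.82 and 10.76 without and 10.45, 10.56, 10.34 and 10.38 with it. The treated arrays lay below the untreated ones in both clones, narrowly in the unconventional clone. The falls were 1.68-fold (-0.75, SE 0.07, adjusted p = 5.74e-08) and 1.26-fold (-0.33, SE 0.07, adjusted p = 0.00134), and their difference was 0.41 (SE 0.10, adjusted p = 0.00687). The dimmer probe set fell too (-0.62 and -0.31), and its difference of 0.30 was not called (adjusted p = 0.0829). With median centring the difference of the brighter probe set was 0.36 and not called (adjusted p = 0.0555).

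**Figure D2:**
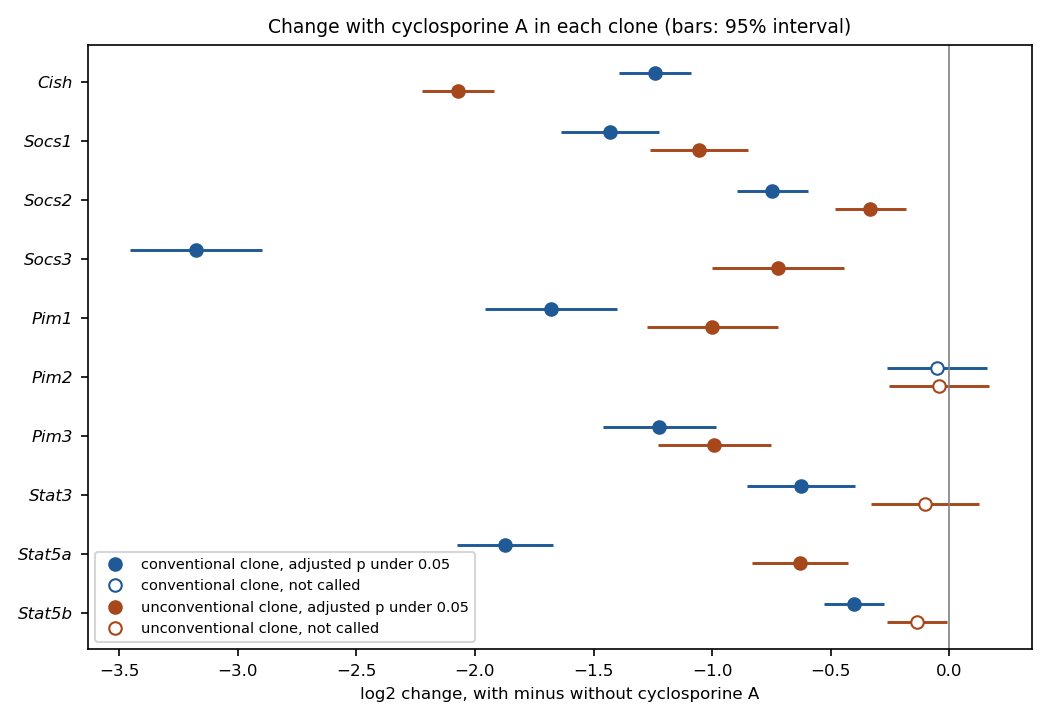
Log2 change with cyclosporine A (horizontal axis) of each gene (vertical axis) in the conventional clone (blue) and the unconventional clone (brown), with 95% intervals from limma and filled points for adjusted p under 0.05. Socs3 changed by -3.18 and -0.72, Cish by -1.24 and -2.07, and both intervals of Pim2 span 0.

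The PIM kinases split into a pair that responded and one that was not called. Pim1, the family member induced by many cytokines and by T cell activation, read 11.61, 11.68, 11.76 and 11.56 in the conventional clone without the drug and 9.97, 9.70, 9.89 and 10.33 with it. Its arrays in the other clone read 10.55, 11.10, 11.01 and 11.19 without and 9.87, 9.96, 9.82 and 10.20 with the drug. Treated arrays were lower throughout, and both treated groups ended within the same range. The falls were 3.20-fold (-1.68, SE 0.13, adjusted p = 3.48e-09) and 2.00-fold (-0.999, SE 0.13, adjusted p = 8.26e-06), with a difference of 0.68 (SE 0.19, adjusted p = 0.0152). Replicate 1 was the low array of the untreated unconventional group. Without it the fall there was -1.14 and the difference 0.54 (adjusted p = 0.0283).

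Pim3, a close relative of Pim1, read 9.52, 9.61, 9.75 and 9.56 in the conventional clone without the drug and 8.52, 8.14, 8.41 and 8.48 with it. For the unconventional clone the values were 8.78, 9.30, 9.23 and 9.47 without and 8.25, 8.15, 8.16 and 8.24 with the drug. No treated array reached an untreated one, and the untreated low array of the unconventional clone was again replicate 1. The falls were 2.34-fold (-1.22, SE 0.11, adjusted p = 3.58e-08) and 1.99-fold (-0.99, SE 0.11, adjusted p = 1.49e-06). Their difference was 0.23 (95% interval -0.11 to 0.57, adjusted p = 0.433) and 0.09 without that replicate. The interval leaves room for effects of equal size. It runs from a larger fall in the unconventional clone (-0.11) to a larger fall in the conventional clone (0.57).

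Pim2, which sustains T cell growth when mTOR is inhibited, was not called with the drug in either clone. It read 7.87, 7.59, 7.74 and 7.85 in the conventional clone without the drug and 7.88, 7.68, 7.53 and 7.75 with it. Unconventional arrays gave 7.76, 8.05, 8.23 and 8.26 without and 8.09, 8.02, 7.96 and 8.05 with the drug. The groups overlapped in both clones. The changes were -0.05 (95% interval -0.26 to 0.16, adjusted p = 0.763) and -0.04 (-0.25 to 0.17, adjusted p = 0.842). A fall as large as those of Pim1 or Pim3 lies outside these intervals.

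Of the transcription factors, Stat5a responded most. It read 9.93, 9.92, 10.04 and 9.88 in the conventional clone without the drug and 8.38, 7.88, 7.96 and 8.06 with it. The other clone gave 9.21, 9.32, 9.43 and 9.58 without and 8.79, 8.75, 8.66 and 8.82 with the drug. The groups were separate in both clones, and the treated conventional arrays were the lowest of all 16. The falls were 3.66-fold (-1.87, SE 0.10, adjusted p = 6.95e-12) and 1.55-fold (-0.63, SE 0.10, adjusted p = 4.44e-05), and they differed by 1.25 (SE 0.14, 95% interval 0.96 to 1.53, adjusted p = 1.54e-06).

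Stat5b, its close paralog, read 8.86, 8.74, 8.88 and 8.84 in the conventional clone without the drug and 8.43, 8.48, 8.38 and 8.42 with it. Its unconventional values were 8.99, 8.98, 9.06 and 9.08 without and 8.91, 8.81, 8.91 and 8.93 with the drug. It fell 1.32-fold in the conventional clone (-0.40, SE 0.06, adjusted p = 1.81e-05). In the unconventional clone the arrays did not overlap but the change of -0.14 was not called (95% interval -0.27 to -0.01, adjusted p = 0.112), and it was called among the brighter genes only (adjusted p = 0.0399). The difference of effects was called at 0.27 (SE 0.09, adjusted p = 0.0383). That call was lost with median centring (0.22, adjusted p = 0.227), and it was lost without 1 array in 10 cases, namely conventional replicates 1, 3 and 4 with anti-CD3 alone, conventional replicates 1, 3 and 4 with the drug, unconventional replicate 2 with anti-CD3 alone, and unconventional replicates 1, 3 and 4 with the drug (0.25 to 0.27, adjusted p = 0.0594 to 0.0789). Stat5b, Stat5a and Stat3 lie next to each other on chromosome 11 with 0 other protein-coding genes between them, per the RefSeq table. How well the probes separate transcripts of the Stat5 pair was not tested.

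Stat3 read 11.53, 11.05, 11.41 and 11.72 in the conventional clone without the drug and 10.91, 10.63, 10.71 and 10.96 with it. The unconventional arrays read 10.89, 10.81, 10.99 and 10.96 without and 10.74, 10.82, 10.80 and 10.87 with the drug. The untreated conventional arrays stood above the other 12 and were the most scattered, with an SD of 0.28 (n = 4). Stat3 fell 1.54-fold in the conventional clone (-0.62, SE 0.11, adjusted p = 0.000108), while its change in the unconventional clone was -0.11 (95% interval -0.33 to 0.12, adjusted p = 0.600). The difference of 0.52 was called (SE 0.15, adjusted p = 0.0239). The call was lost with median centring (0.47, adjusted p = 0.0542), without conventional replicate 4 with anti-CD3 alone (0.42, adjusted p = 0.0523), without conventional replicate 2 with the drug (0.46, adjusted p = 0.0524) and without unconventional replicate 2 with anti-CD3 alone (0.48, adjusted p = 0.053).

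Across the circuit, the difference of the drug's effects was called for 7 of the 10 genes, with 16.3% of all genes called. For 6 it was higher in the unconventional clone, meaning a smaller fall there, against 8.51% of all genes, and for Cish it was lower. The difference was at least 2-fold for Socs3 and Stat5a, against 1.66% of all genes called higher by that much. With median centring 4 of the 10 differences were called, those of Cish, Socs3, Pim1 and Stat5a. Of all genes, 1188 were then called higher and 1569 lower, against 1696 and 1551 as deposited. The comparisons of the drug in the 2 clones share no arrays.

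The clones themselves differed in these genes, which was the subject of the second comparison. With anti-CD3 alone, 7 of the 10 genes were lower in the unconventional clone and 2 were higher, with 21.7% of all genes called lower and 20.3% called higher. As with the drug's effects, centring each array on its median shifted the split of all genes, here to 4316 higher and 3025 lower from 4048 and 4328 as deposited. Socs3 had the widest gap, 4.88-fold lower in the unconventional clone (-2.29, SE 0.13, adjusted p = 2.03e-11), and its dimmer probe set gave -1.08 (adjusted p = 6.69e-08). Socs1 was lower by -0.93 (SE 0.10, adjusted p = 1.59e-07), Cish by -0.74 (SE 0.07, adjusted p = 5.37e-08) and Pim1 by -0.69 (SE 0.13, adjusted p = 0.000244). Stat5a, Stat3 and Pim3 were lower by smaller amounts, between -0.56 and -0.42. The arrays of these 7 genes did not overlap between the clones, as for 19.8% of all genes with the unconventional clone lower. Stat5b was the 1 gene whose arrays were all higher in that clone, as for 18.9% of all genes.

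Pim2 and Stat5b were higher in the unconventional clone with anti-CD3 alone, by 0.31 (SE 0.10, adjusted p = 0.0172) and 0.20 (SE 0.06, adjusted p = 0.0119). The arrays of Pim2 overlapped. The call of Pim2 was lost with quantile (0.21, adjusted p = 0.112) and cyclic loess normalization (0.24, adjusted p = 0.0666), without conventional replicate 2 (0.25) and without unconventional replicate 3 (0.26) or 4 (0.25). The call of Stat5b was lost with quantile (0.13, adjusted p = 0.108) and cyclic loess normalization (0.11, adjusted p = 0.146). Socs2 was the gene not called, at -0.12 (95% interval -0.27 to 0.03, adjusted p = 0.194), and it was called lower with cyclic loess normalization (-0.18, adjusted p = 0.0402).

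**Figure D3:**
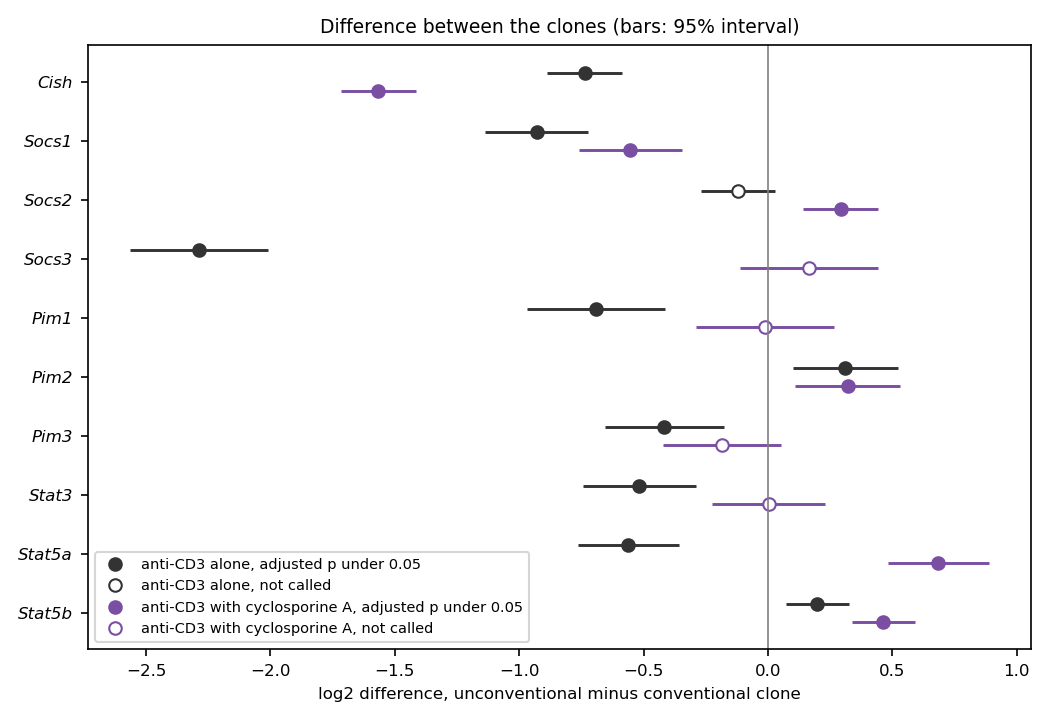
Log2 difference between the clones, unconventional minus conventional (horizontal axis), for each gene with anti-CD3 alone (black) and with cyclosporine A (purple), with 95% intervals and filled points for adjusted p under 0.05. Socs3 goes from -2.29 to 0.17, Cish from -0.74 to -1.57 and Stat5a from -0.56 to 0.68.

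With cyclosporine A the picture between the clones was different. There, 2 of the 10 genes were lower in the unconventional clone and 4 were higher, with 23.0% and 21.3% of all genes called in those directions. Cish stayed lower and its gap reached 2.96-fold (-1.57, SE 0.07, adjusted p = 4.19e-13). Socs1 also stayed lower, by -0.55 (SE 0.10, adjusted p = 9.30e-05). Stat5a was now higher in the unconventional clone, by 0.68 (SE 0.10, adjusted p = 5.70e-06), having been lower without the drug. Stat5b was higher by 0.46 (SE 0.06, adjusted p = 1.95e-06), Pim2 by 0.32 (SE 0.10, adjusted p = 0.0134) and Socs2 by 0.29 (SE 0.07, adjusted p = 0.00224). The arrays of these 2 lower and 4 higher genes did not overlap between the clones, as for 21.3% and 20.9% of all genes. The call of Pim2 was lost with quantile normalization (0.21, adjusted p = 0.0994) and without conventional replicate 3 with the drug (0.26, adjusted p = 0.0552). The change of these gaps with the drug is the same quantity as the difference of the drug's effects given above.

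The other 4 genes were not called between the drug-treated clones. Socs3 differed by 0.17 (95% interval -0.11 to 0.44, adjusted p = 0.324) and by -0.25 in its dimmer probe set (adjusted p = 0.0577). Pim1 differed by -0.01 (-0.29 to 0.27, adjusted p = 0.947), Pim3 by -0.18 (-0.42 to 0.05, adjusted p = 0.202) and Stat3 by 0.0027 (-0.23 to 0.23, adjusted p = 0.986). For each of these 4 genes the arrays of both treated groups overlapped.

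The order of the groups differed by gene. Cish, Socs1, Pim1, Pim3 and Stat5a were highest in the untreated conventional clone and second highest in the untreated unconventional clone, with no overlap between these groups. For Cish and Socs1 the conventional clone with the drug came next and the unconventional clone with the drug was lowest, again without overlap. For Pim1 and Pim3 both treated groups overlapped, and for Stat5a the treated conventional group was the lowest and stood apart. Socs2 was ordered like Stat5a, except that its untreated groups overlapped. Socs3 was highest in the untreated conventional clone and second in the untreated unconventional clone, with the treated groups overlapping. For Stat3 only the untreated conventional group stood apart. Stat5b had the order untreated unconventional, treated unconventional, untreated conventional, treated conventional, in which the middle pair of groups overlapped, and the arrays of Pim2 overlapped between several groups.

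For the 4 genes with the widest range of group means, the genes most like them over the 16 arrays were sought by Pearson correlation among 3367 other genes whose group means spanned at least 1. The arrays form 4 groups, so these correlations describe mainly the order of the group means and carry no test. Socs3 was most like Repin1 (r = 0.990), Flvcr1 (0.983) and Lum (0.982). Flvcr1 is a transporter of the plasma membrane and Lum encodes lumican, a matrix proteoglycan. Lum had group means of 9.87 and 4.16 in the conventional clone and 6.14 and 4.00 in the unconventional clone, without and with the drug. Cish was most like Mfsd2a (0.992), a lipid transporter, the transcription factor Foxp1 (0.985) and the kinase Mapkapk2 (0.985). Socs1 was most like the transcription factors Klf6 (0.983), Atf3 (0.982) and Ikzf4 (0.979), and Stat5a most like the potassium channel Kcnk5 (0.980), Pgm1 (0.978), an enzyme of glycogen and glucose metabolism, and the folate transporter Slc19a1 (0.977).

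The rest of the pathway was read from lists, beginning with the ligands. The counts of each list stand beside the shares of all genes called with the drug. Those were 15.5% lower and 15.9% higher in the conventional clone, and 12.3% and 12.6% in the unconventional clone. Of 17 measured cytokines that signal through STAT proteins, 9 fell and 1 rose with cyclosporine A in the conventional clone, and 8 fell and 0 rose in the unconventional clone by limma, also 0 at an unadjusted p under 0.05. Their median changes were -0.38 and -0.37, beside 0.02 for all genes in each clone. Il4, Il5, Il6, Il15 and Il21 lay below Cd4 on any array in all 4 groups, so a fall there could hardly be read. Il6, at 3.01 and 2.81 in the conventional clone without and with the drug, is nonetheless among the 9 falls. Il24 and Il10, both ligands of receptors that use STAT3, went from 12.84 to 4.14 and from 12.96 to 6.65 in the conventional clone, and from 13.18 to 4.13 and from 12.47 to 8.01 in the unconventional clone. The treated means of Il24 lay within the range of Cd4. Whether the size of its fall is limited by how low its probe set can read was not tested. Ifng, the gene of interferon-γ, fell in both (-3.43 and -5.28, adjusted p = 8.40e-15 and 2.82e-17). The fall of Il10 was smaller in the unconventional clone (1.84, SE 0.27, adjusted p = 4.57e-05) and that of Ifng larger (-1.85, SE 0.16, adjusted p = 5.90e-08).

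**Figure D4:**
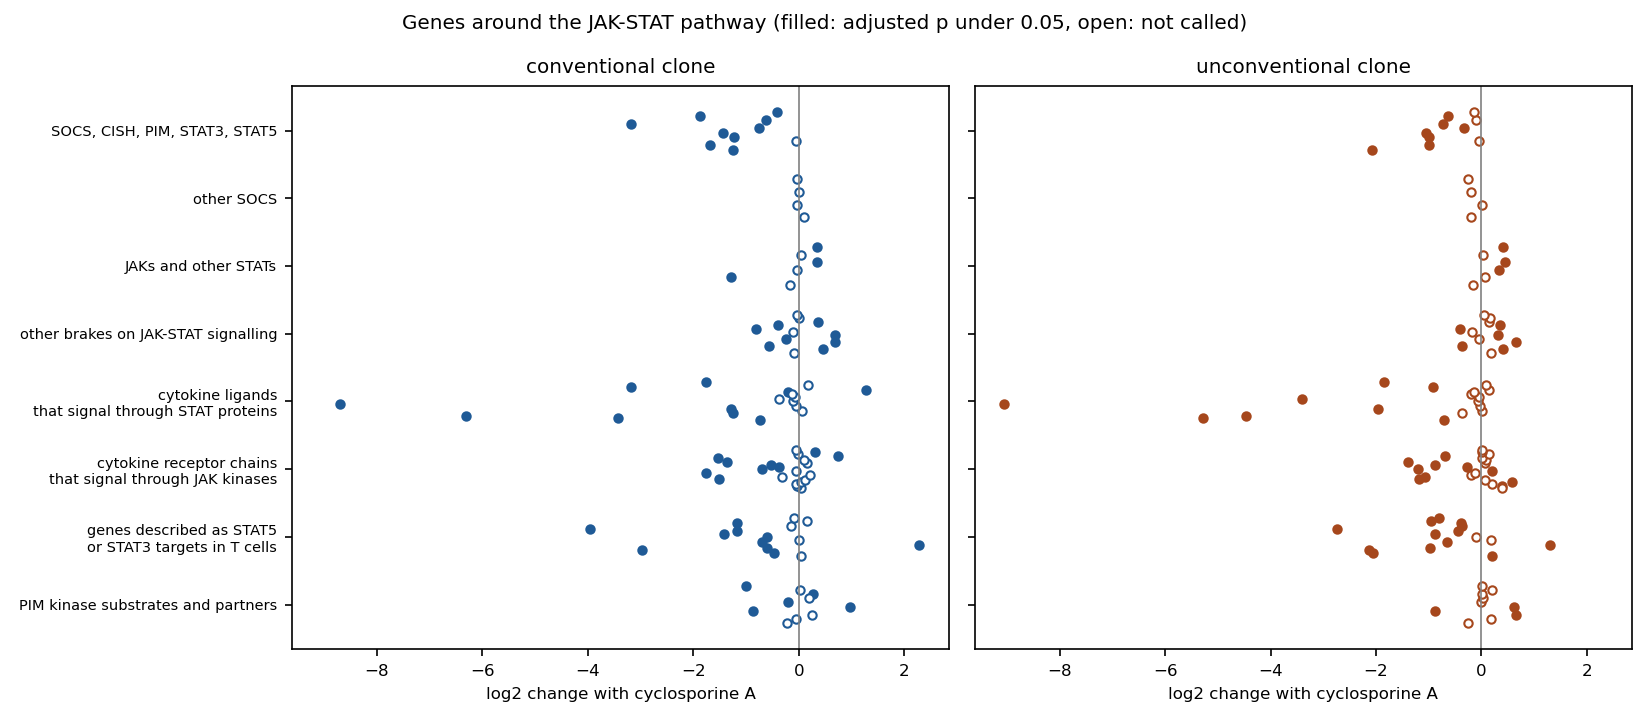
Log2 change with cyclosporine A (horizontal axis) of the 10 genes and of each gene in 7 lists around the pathway (vertical axis), in the conventional (left) and unconventional clone (right), with filled points for adjusted p under 0.05. In the conventional clone 9 of 17 cytokines and 0 of 4 other SOCS genes fell, against 15.5% of all genes.

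Of 21 measured receptor chains that use JAK kinases, 7 fell and 2 rose in the conventional clone, against 15.5% and 15.9% of all genes. In the unconventional clone 7 fell and 3 rose, against 12.3% and 12.6% of all genes. The medians were -0.04 and 0.02. In the conventional clone the largest falls were in Il12rb2, the IL-12 receptor chain that recruits STAT4 (-1.75, SE 0.13), Il6st, which encodes gp130 (-1.53, SE 0.08), and Il10ra (-1.50, SE 0.28). Those of the unconventional clone were in Il4ra (-1.39, SE 0.08), Il21r (-1.20, SE 0.10) and Il10ra (-1.18, SE 0.28). Il6st stood at a change of 0.02 there and Il12rb2 at -0.13, and the difference of effects was called for each (1.55 with adjusted p = 1.55e-08, and 1.62 with adjusted p = 2.45e-06). Their levels were unlike. Untreated Il6st was at 8.39 in the unconventional clone, near the 8.41 of the treated conventional clone. Untreated Il12rb2 was at 9.93 in the unconventional clone, against 8.50 in the treated conventional clone. Il4ra gave a difference of -0.02 (adjusted p = 0.942).

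Of 6 measured JAK kinases and other STATs, 1 fell and 2 rose in the conventional clone, and 0 fell and 3 rose in the unconventional clone, with medians of 0.0034 and 0.19. By limma, 1 was lower there at an unadjusted p under 0.05. All genes called lower and higher made up 15.5% and 15.9% in the conventional clone, and 12.3% and 12.6% in the unconventional clone. Jak2, the kinase of the interferon-γ and IL-12 receptors among others, went from 9.56 ± 0.07 to 8.28 ± 0.06 (SD, n = 4) in the conventional clone (-1.28, adjusted p = 1.60e-11). The unconventional clone had it at 7.96 ± 0.12 and 8.02 ± 0.07 (SD, n = 4), and the effects differed by 1.34 (SE 0.10, adjusted p = 8.64e-09). Stat4 rose by 0.35 and 0.44 and Tyk2 by 0.34 and 0.42, and Stat2 rose by 0.33 in the unconventional clone and was at -0.03 in the conventional clone (adjusted p = 0.833).

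The other SOCS genes Socs4, Socs5, Socs6 and Socs7 were not called in either clone in the limma fit, 0 of 4 in each direction. At an unadjusted p under 0.05, 0 of them moved in the conventional clone, while Socs6 and Socs7 were lower in the unconventional clone. Their changes lay between -0.04 and 0.10 in the conventional clone and between -0.26 and 0.01 in the unconventional clone. Of 12 other brakes on JAK-STAT signalling, 4 rose and 4 fell in the conventional clone, against 15.9% and 15.5% of all genes. In the unconventional clone 4 rose and 2 fell, against 12.6% and 12.3% of all genes. The medians were -0.06 and 0.15. Ptpn2, a phosphatase that dephosphorylates JAK kinases and STATs, fell in both clones (-0.80 and -0.40). Pias3, an inhibitor of STAT3, rose by 0.69 and 0.66, the phosphatase gene Ptpn1 by 0.68 and 0.32, and Pias1, which encodes a SUMO ligase, by 0.46 and 0.41.

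Of 15 genes described as STAT5 or STAT3 targets in T cells, 9 fell and 1 rose in the conventional clone, against 15.5% and 15.9% of all genes. In the unconventional clone 11 fell and 2 rose, against 12.3% and 12.6% of all genes. The medians were -0.61 and -0.65. The cytokine gene Lta fell in both (-3.96 and -2.75), as did the survival genes Bcl2l1 (-2.97 and -2.14) and Bcl2 (-0.46 and -2.05). In the conventional clone the arrays of Bcl2 overlapped, at 8.84 to 9.66 without and 8.61 to 9.01 with the drug. The fall of Bcl2 was larger in the unconventional clone (-1.59, SE 0.21, adjusted p = 1.73e-05). Bcl6, a repressor whose gene STAT5 is known to silence, rose in the conventional clone from 5.62 to 7.91 (2.29, SE 0.13, adjusted p = 4.42e-11) and in the unconventional clone from 4.81 to 6.10 (1.29, adjusted p = 3.74e-07). Of 10 measured PIM kinase substrates and partners, 3 fell and 2 rose in the conventional clone, and 1 fell and 2 rose in the unconventional clone. Their medians were -0.02 and 0.02, and the shares of all genes are those just given. The cell cycle phosphatase Cdc25a fell in each clone (-0.87 in both) and the cyclin-dependent kinase inhibitor Cdkn1b rose by 0.98 and 0.62. Map3k5, a stress kinase, fell from 5.47 to 4.47 in the conventional clone and was at 3.99 and 4.01 in the other. The means in the other clone lay below Cd4 on any array, so a fall there could hardly be read. Bad, a cell death gene, rose by 0.66 in the unconventional clone and was not called in the conventional clone (0.25, adjusted p = 0.0516).

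Markers of other cells were read beside these changes. Among 6 markers of macrophages and dendritic cells, Cd68 rose by 0.79 and 0.43 and Itgax by 1.33 and 0.76, and the other 4 were not called in either clone. The summed log2 level of that list was 31.0 to 31.8 without and 33.8 to 34.3 with the drug in the conventional clone, and 32.4 to 33.4 and 34.2 to 34.7 in the unconventional clone. Of 6 epithelial and fibroblast markers, Lum fell in each clone, Col1a1 rose in the unconventional clone and the other members were not called. The sum for that list was 35.1 to 36.3 without and 30.6 to 31.0 with the drug in the conventional clone, and 30.2 to 32.2 and 29.3 to 30.3 in the unconventional clone. Lum alone went from 9.87 to 4.16 and from 6.14 to 4.00, so the lower sums with the drug rest on that gene. Among 4 B cell markers, Cd79a rose by 0.38 in the unconventional clone and no other was called, and their sum was 15.2 to 16.5 in the conventional and 15.8 to 16.4 in the unconventional clone. Cd79a itself lay at a mean of 3.15 without and 3.53 with the drug there. Of 3 measured granulocyte and erythroid markers, 0 were called in either clone by limma, and 1 was higher at an unadjusted p under 0.05 in the unconventional clone. The part of these cells or genes in the results above was not tested.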

How the data were processed

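The deposited table holds the authors' log2 expression values for 28853 probe sets on 16 arrays. The submitters' processing notes name GCOS, RMA and Partek 6.2 without saying what each did. That the values are log2 was read from their range, 2.08 to 14.55. RMA usually equalises array distributions, so a change shared by most transcripts may not show, or only in part. The array medians still ranged from 5.16 to 5.35, and what that spread reflects was not tested. The build behind the probe annotation is not given in the sources used here. Precision is limited by the number of arrays.

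Probe sets with 1 symbol (21789) were reduced to the brightest one per gene, giving 19938 genes, and no dim gene was removed. A mean per group was fitted with limma 3.58.1 in R 4.3.3 (12 residual degrees of freedom, 18.8 after moderation), without a replicate block. Tests were two-sided with Benjamini-Hochberg adjustment over all genes, after a check on simulated data. Named genes were the 10 members, up to 3 called genes with the largest change per list and clone, and the 3 most correlated genes for each of 4 members. The members and lists were chosen with earlier results of these data known.

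Replicate numbers were not used to pair arrays, since the labels give them no shared origin. Alternatives were other normalizations, a filter on dim genes, the mean of probe sets, other variance models, smaller fits, a replicate block and leaving out each array.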

Additional observations from a re-analysis of the deposited data

Results flagged for a closer look

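The drug's effect differed between the clones for 7 of the 10 genes, by the test of the difference itself in the limma fit. That difference is unconventional minus conventional on the log2 scale. It was called for 16.3% of all genes, with 8.51% higher and 7.78% lower. Cish had the larger fall in the unconventional clone (-0.83). The fall was smaller there for Socs3 (2.45), Stat5a (1.25), Pim1 (0.68), Stat3 (0.52), Socs2 (0.41) and Stat5b (0.27). Those of Stat3, Socs2 and Stat5b were lost with median centring, and those of Stat3 and Stat5b also without single arrays, as given above.

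One array stood far from the other 3 of its group. Socs1 on replicate 4 of the conventional clone with anti-CD3 alone read 9.43, and its gap to the nearest array took up 0.865 of the group's range, above Dixon's critical value for 4 samples. Of 40 groups of 4 arrays tested, 1 was marked in this way, and chance marks about 1 group in 20.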

How the results depend on the processing

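In each fit of all genes, 9 genes were called with the drug in the conventional clone, and 7 in the unconventional clone, or 8 among the brighter genes. The count for the difference of effects was 7, 4 with median centring, 8 among the brighter genes, and 5 to 8 when single arrays were left out (5 without unconventional replicate 2 with anti-CD3 alone). Of all genes, 3247 were called for that difference, and 2931 to 3386 when single arrays were left out. With median centring 1188 of all genes were called higher and 1569 lower, against 1696 and 1551 as deposited. Counts between the clones were 7 to 9 with anti-CD3 alone and 5 to 6 with the drug. Over all genes, leaving out single arrays gave 7485 to 8581 and 8043 to 9258 calls in these comparisons. A replicate block gave 6 called differences, the loss being Stat5b (0.27, adjusted p = 0.0526), and changed no other call of the 10 genes. Of 24 same-numbered pairs of arrays across groups, 3 deviated together at a correlation over 0.1 (range -0.14 to 0.28). Of 48 comparisons of an array with another group, 19 were closest to their own replicate number, where 12 would be if numbers meant nothing, and whether numbers mark a shared origin was not tested further. Signs turned only for values not called, except Socs3 with the drug in the unconventional clone, at 0.13 in its dimmer probe set, an alternative chosen after seeing the data. Among the values not called, leaving out single arrays gave Pim2 -0.11 to 0.0081 in the conventional clone, -0.15 to 0.017 in the unconventional clone, and -0.094 to 0.070 for its difference of effects, which was -0.040 with median centring. Between the treated clones it gave Pim1 -0.10 to 0.11 and Stat3 -0.054 to 0.055. There, Stat3 was at -0.067 with cyclic loess, and Socs3 at -0.041 with the mean of probe sets and -0.25 in the dimmer one. The causes were not tested. No alternative removed a gene's main call in either clone other than the dimmer probe set for Socs3.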

Other observations

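The effect of cyclosporine A also differed between the clones for further cytokine and receptor genes of the lists, chosen here after their values were seen. Il7r, the receptor chain for IL-7 that signals through STAT5, was at 10.85 ± 0.13 and 11.59 ± 0.04 (SD, n = 4) in the conventional clone without and with cyclosporine A, and at 10.92 ± 0.10 and 10.24 ± 0.01 (SD, n = 4) in the unconventional clone. It rose by 0.74 in the former (adjusted p = 5.90e-08) and fell by 0.68 in the latter (adjusted p = 4.20e-07), a difference of -1.42 (SE 0.10, adjusted p = 5.17e-09). Il7 rose by 1.28 in the conventional clone, from 4.67 to 5.95, and was not called in the unconventional clone (0.15, adjusted p = 0.445), with a difference of -1.14 (adjusted p = 3.07e-05). Il9, whose receptor also uses STAT5, fell from 8.48 to 5.31 in the conventional clone and from 5.95 to 5.03 in the unconventional clone, a difference of 2.25 (adjusted p = 1.23e-07). Il3 fell from 6.98 to 3.57 in the unconventional clone and stood at 4.08 and 3.70 in the conventional clone (difference -3.03, adjusted p = 8.42e-06). The 3 lower means of Il3 lay below Cd4 on any array (4.11 to 4.46), though single untreated conventional arrays read up to 4.26. Whether the size of its changes is limited by how low its probe set can read was not tested. Il2ra, the inducible chain of the IL-2 receptor, fell in both (-0.53 and -0.88), with a difference of -0.34 (adjusted p = 0.0394).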
